A study of Mus musculus with 6 samples.

Results

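Bone morphogenetic protein (BMP) signaling was examined through 10 genes in mouse embryonic fibroblasts (MEFs) with and without RNF40, an E3 ubiquitin ligase that acts with RNF20 to monoubiquitinate histone H2B. The 10 genes were found by symbol among the 29955 genes of the expression table, and the list was drawn up with earlier results of these data known. They were the ligands Bmp2, Bmp4 and Bmp6, the receptors Bmpr1a and Bmpr2, the secreted antagonist Grem1, and the inhibitor of DNA binding (ID) genes Id1, Id2, Id3 and Id4. All 10 passed the filter on low reads, as did 16378 genes in total.

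RNA was sequenced from 3 Rnf40+/+ and 3 Rnf40-/- libraries of passage 3 MEFs, a mixed primary culture prepared from mid-gestation embryos. The knockout cells came from Rosa26-CreERT2, Rnf40 loxP/loxP embryos, in which exons 3 and 4 of Rnf40 were floxed and the tamoxifen-dependent Cre was driven from the ubiquitously active Rosa26 locus. They were grown for 5 days with 250 nM 4-hydroxytamoxifen (4-OHT) and then for 3 days without it. The methods describe MEFs from these embryos only, but do not say whether the Rnf40+/+ libraries came from the same cells without 4-OHT. Deletion, Cre activation and 4-OHT cannot be told apart here. It was also not stated whether the 3 libraries of a genotype came from separate embryos, so p-values measure only the spread between these libraries.

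BMP ligands are secreted dimers that bring type I and type II serine/threonine kinase receptors together. The type I receptor then phosphorylates SMAD1, SMAD5 and SMAD9, which enter the nucleus with SMAD4. The ID genes are classical direct targets of these SMADs in fibroblasts and other mesenchymal cells. ID proteins have a helix-loop-helix domain but no DNA-binding region, and they hold back E proteins and their partners by dimerizing with them.

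Values are normalized read counts, which the authors scaled for the depth of each library, and fold changes are Rnf40-/- over Rnf40+/+ on the log2(normalized count + 1) scale, with limma's moderated test. The p-values were adjusted over all 16378 tested genes by the Benjamini-Hochberg method. Reads on genes ranged from 17053436 to 26344170 per library, and 3 reads were worth a normalized count of 2.40 to 3.58. Rnf40 itself was at 1278, 1195 and 1096 in Rnf40+/+ and at 439, 519 and 487 in Rnf40-/- (log2 fold change -1.30 ± 0.09 SE, adjusted p = 4.25e-07). The 10 fibroblast markers were all detected, 8 of them fell and 0 rose, and their summed level was 669465 to 741504 in Rnf40+/+ and 400462 to 403413 in Rnf40-/-. For comparison, 24.1% of all genes tested fell. Fn1 was the largest part of the fibroblast sum, at means of 328300 in Rnf40+/+ and 210096 in Rnf40-/-. Dcn (1371 and 1540) and Lum (146 and 89.7) overlapped between the genotypes and did not pass, so this sum does not speak for every marker either. Of the 8 macrophage markers tested, 2 rose and 2 fell. The summed level of the macrophage markers was lower in Rnf40-/- without overlap, at 5773, 6195 and 10343 in Rnf40+/+ and 3926, 3658 and 4044 in Rnf40-/-. Lyz2 made up most of that sum and fell from a mean of 5314 to 2264, and C1qa fell from 664 to 158. Ptprc rose from 62.6 to 160 and Cd14 from 113 to 181, so the sum does not speak for every marker. The part of these marker differences in the values of the BMP and ID genes was not tested. In bulk RNA, fewer cells of a type and less RNA per cell cannot be told apart. Rnf40+/+ replicate 3 stood apart from the other Rnf40+/+ libraries over the whole table, with a mean chi-square per gene of 26.9 and 24.1 against them, compared with 7.87 between those libraries, and it had C1qa, a macrophage complement gene, at 1211 against 386 and 395. Values without this library are given beside each result whose call it changed. Within Rnf40+/+, replicate 1 had the highest value for 6 of the 10 genes and replicate 3 the lowest for 7. Replicate 1 also stood apart on some marker genes. The endothelial marker Tek was at 115, 11.2 and 16.0 in Rnf40+/+ replicates 1, 2 and 3, and the epithelial marker Krt8 at 58.5, 1.02 and 9.58. Not every marker did so, since the endothelial marker Kdr was lowest in replicate 1, at 21.5, 26.5 and 34.3. The part of such differences in the high BMP and ID values of replicate 1 was not tested.

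Of the 10 genes, 2 rose in Rnf40-/- (Bmp6 and Bmpr1a), 4 fell (Id1, Id2, Id3 and Id4) and 4 did not pass the test at an adjusted p of 0.05 (Bmp2, Bmp4, Bmpr2 and Grem1). Across all genes tested, 23.3% rose, 24.1% fell and 47.4% passed in either direction. A count of 6 in 10 is therefore near what the table as a whole showed. The median log2 fold change was -0.24 over the 10 genes and -0.0035 over all genes tested. The genotypes did not overlap for 5 of the 10 genes, against 56.5% of all genes tested. The study called a gene regulated from a mean above 15, a log2 fold change beyond 1 in either direction and an unadjusted p under 0.05. Applied here to limma's fold changes and unadjusted p-values, those limits were met by 1 of the 10, Bmp6, and by 9.95% of all genes tested.

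**Figure D1:**
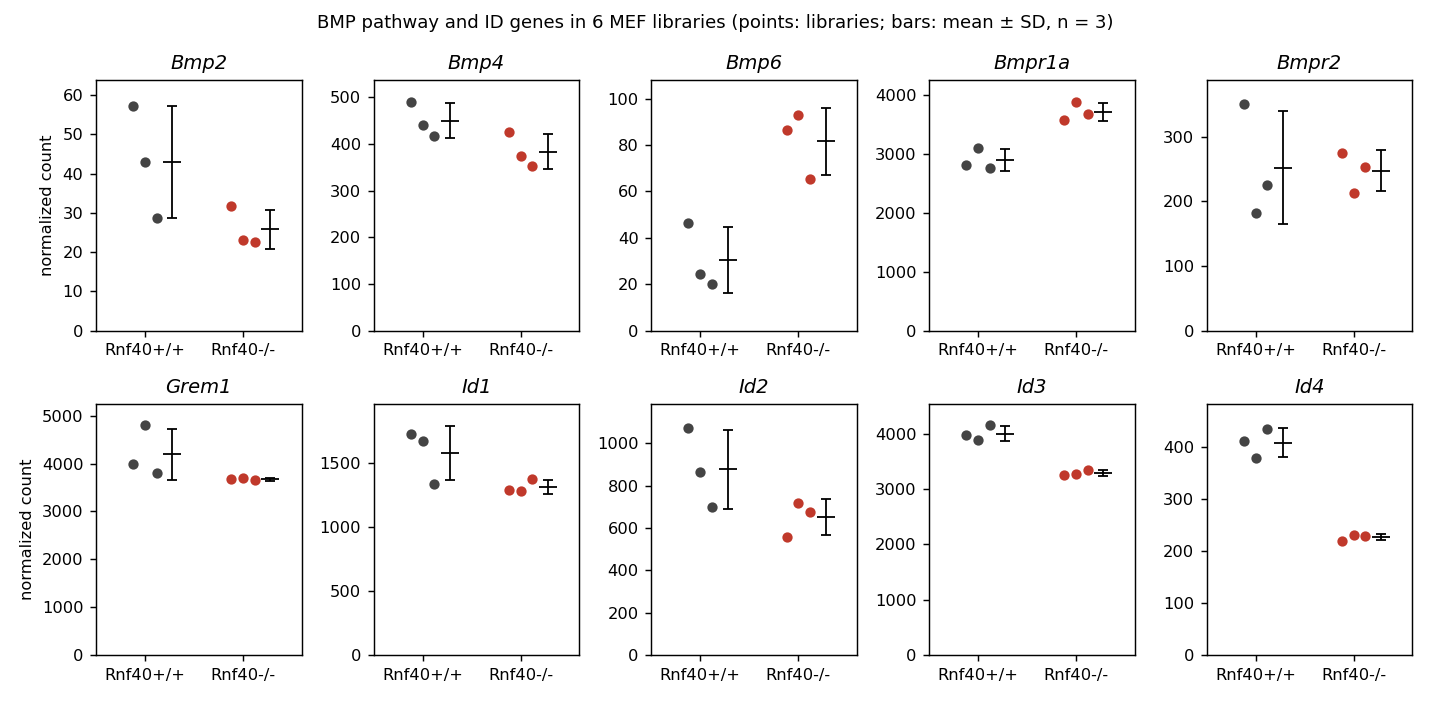
Normalized read count of each of the 10 BMP and ID genes in the 3 Rnf40+/+ and 3 Rnf40-/- libraries, 1 panel per gene with its own axis from 0, where points are libraries and bars the mean ± SD. The genotypes do not overlap for Bmp6, Bmpr1a, Grem1, Id3 and Id4, and they overlap for the other genes.

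The sequences before the RefSeq start of the 3 ID genes that had a promoter entry and of Bmp6, the gene with the largest fold change of the 10, are shown because these genes moved in opposite directions. Each is the 250 bases before the RefSeq transcript start (table built on GRCm38.p6), read 5′ to 3′ on the strand of the gene, and each matched the mm9 genome once, at the position given. The RefSeq starts did not all coincide with the 5′ ends of the genes in the mm9 annotation. They lay 590 bases downstream for Bmp6, 325 for Id3 and 795 for Bmpr1a, so these windows fall inside the annotated genes. For Id4 and Bmpr2 they lay upstream (offsets of -311 and -358 bases), and for Id2, Bmp4 and Grem1 they were the same or nearly so (offsets of 0, 0 and -2 bases). The coordinates are Bmp6 chr13:38437335-38437584 (plus strand), Id2 chr12:25780958-25781207 (minus strand), Id3 chr4:135699487-135699736 (plus strand) and Id4 chr13:48356235-48356484 (plus strand). Capitals mark the motifs searched.
Bmp6: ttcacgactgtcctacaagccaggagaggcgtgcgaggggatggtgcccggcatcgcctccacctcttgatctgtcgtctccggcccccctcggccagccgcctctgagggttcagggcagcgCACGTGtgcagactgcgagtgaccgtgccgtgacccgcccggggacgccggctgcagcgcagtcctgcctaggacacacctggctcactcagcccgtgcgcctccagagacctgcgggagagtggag
Id2: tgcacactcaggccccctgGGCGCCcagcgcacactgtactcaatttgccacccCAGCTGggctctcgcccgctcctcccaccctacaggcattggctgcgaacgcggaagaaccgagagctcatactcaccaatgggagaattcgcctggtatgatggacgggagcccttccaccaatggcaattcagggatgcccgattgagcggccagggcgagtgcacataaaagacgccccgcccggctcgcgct
Id3: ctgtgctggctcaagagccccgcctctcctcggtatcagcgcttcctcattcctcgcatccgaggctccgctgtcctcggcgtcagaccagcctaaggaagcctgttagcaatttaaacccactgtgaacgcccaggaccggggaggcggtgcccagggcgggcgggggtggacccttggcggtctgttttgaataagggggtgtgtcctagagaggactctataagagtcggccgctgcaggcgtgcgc
Id4: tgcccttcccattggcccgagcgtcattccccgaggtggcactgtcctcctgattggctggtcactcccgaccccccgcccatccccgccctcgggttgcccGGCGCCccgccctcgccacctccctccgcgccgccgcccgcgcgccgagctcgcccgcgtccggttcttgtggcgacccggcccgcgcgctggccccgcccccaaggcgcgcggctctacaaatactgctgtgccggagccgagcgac

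Palindromic motifs were searched in these windows, so both strands were covered: GGCGCC, a GC-rich motif described for BMP-activated SMADs, GTCTAGAC, a palindromic SMAD box, CACGTG and CAGCTG, which are E-box forms of the kind bound by helix-loop-helix factors, and TGACGTCA, the cyclic AMP response element. GGCGCC was present in 9.59% of the 32851 promoter windows of the table and in 5 of the 8 windows available for the 10 genes. Its start lay 231 bases before the transcript start in Id2, 148 in Id4, 198 in Bmpr1a, 105 in Bmpr2 and 78 in Grem1. CACGTG, present in 6.02% of all windows, was found 188 bases before the start of Bmp4 and 127 before that of Bmp6, and CAGCTG, present in 13.0%, was found 196 bases before that of Id2. The Id3 window held 0 of the 5 motifs, and GTCTAGAC (0.167% of all windows) and TGACGTCA (1.55%) were in 0 of the 8. The 8 windows were 62.8% to 78.8% G and C, against a median of 52.4% over all windows, and a GC-rich window holds GC-rich words more often. Of the genes with GGCGCC, Bmpr1a rose, Id2 and Id4 fell, and Bmpr2 and Grem1 did not pass the test. Any part of the motifs in these values was not tested.

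Among the ligands, Bmp6 rose and neither Bmp2 nor Bmp4 passed the test. Bmp6, a ligand of the BMP5/6/7 subgroup known for iron regulation and bone formation, lies on chromosome 13 of mm9 (38436995-38592183, plus strand). Its normalized count was 46.6, 24.5 and 20.0 in Rnf40+/+ and 86.7, 92.9 and 65.1 in Rnf40-/-. All 3 Rnf40-/- libraries were above all 3 Rnf40+/+ libraries. The mean went from 30.3 ± 14.2 (SD, n = 3) to 81.6 ± 14.6 (SD, n = 3), which is 269% of the Rnf40+/+ mean, with a log2 fold change of 1.47 ± 0.30 (SE, 95% interval 0.81 to 2.14, adjusted p = 0.00182). These values rest on 24 to 39 reads per Rnf40+/+ library and 69 to 89 per Rnf40-/- library.

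The 3′ end of Bmp6 overlaps Txndc5, a protein disulfide isomerase gene on the opposite strand (chromosome 13, 38591948-38620693). Txndc5 was far more abundant, at 10516, 11304 and 11078 in Rnf40+/+ and 7120, 7290 and 7320 in Rnf40-/-. It fell (log2 fold change -0.60, adjusted p = 9.38e-06), which is the opposite direction to Bmp6. The libraries were strand-specific, but the strand setting of the read counting was not given in the sources used here, and any Txndc5 reads among those of Bmp6 were not tested.

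Bmp4 was the main ligand of the 3 at the RNA level. On the opposite strand in the mm9 annotation, Gm15217 overlaps its 3′ end and Gm15222 lies within it, and shared reads were not tested. Bmp4, which signals in mesoderm and limb mesenchyme (chromosome 14, 47003195-47010344, minus strand), was at 490.8, 441 and 418 in Rnf40+/+ and at 426, 374 and 352 in Rnf40-/-. The genotypes overlapped, since Rnf40-/- replicate 1 was above Rnf40+/+ replicate 3. The log2 fold change of -0.23 ± 0.10 (SE, 95% interval -0.46 to 0.00021) did not pass the test (adjusted p = 0.0931). Bmp2, its closest relative and an inducer of bone and cartilage (chromosome 2, 133377895-133388621, plus strand), was at 57.3, 42.8 and 28.7 in Rnf40+/+ and at 31.6, 23.0 and 22.7 in Rnf40-/-. Here too Rnf40-/- replicate 1 was above Rnf40+/+ replicate 3. The mean in Rnf40-/- was 59.9% of that in Rnf40+/+, but with 22 to 48 reads per library the log2 fold change was imprecise, at -0.68 ± 0.31 (SE, 95% interval -1.35 to -0.01, adjusted p = 0.0867). Without Rnf40+/+ replicate 3 it was -0.94 (adjusted p = 0.0230).

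Divided by the summed exon length of each gene, the 3 ligands together gave 223 ± 24.7 normalized counts per kb in Rnf40+/+ and 203 ± 21.0 in Rnf40-/- (SD, n = 3 each, exact two-sided permutation test, p = 0.4, where 0.1 is the smallest value that 3 against 3 allows). Their makeup shifted while Bmp4 remained the largest part of it. Bmp4 was 91.0 ± 2.46% of the sum in Rnf40+/+ and 85.2 ± 1.37% in Rnf40-/-, Bmp2 was 5.34 ± 1.23% and 3.56 ± 0.372%, and Bmp6 was 3.70 ± 1.31% and 11.2 ± 1.55%. The genotypes did not overlap for any of these 3 shares. The shares are parts of the same sum, so a higher Bmp6 share by itself lowers the others, and they are not 3 separate results. On their own normalized counts, Bmp2 and Bmp4 overlapped between the genotypes and did not pass the test.

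The receptors differed from each other. Bmpr1a encodes the type I receptor ALK3, the kinase that BMP2 and BMP4 chiefly use in mesenchyme (chromosome 14, 35223920-35316527, minus strand). It was at 2818, 3108 and 2770.2 in Rnf40+/+ and at 3575, 3892 and 3689 in Rnf40-/-. It rose in every Rnf40-/- library, to 128% of the Rnf40+/+ mean (log2 fold change 0.36 ± 0.07 SE, 95% interval 0.21 to 0.51, adjusted p = 0.000963). Gm17110, on the opposite strand, lies within Bmpr1a in the mm9 annotation, and shared reads were not tested. Bmpr2, the type II receptor specific for BMPs (chromosome 1, 59821481-59927703, plus strand), was at 349.9, 182 and 224 in Rnf40+/+ and at 275, 213 and 253 in Rnf40-/-. All 3 Rnf40-/- values lay inside the Rnf40+/+ range. The log2 fold change was 0.02 ± 0.20 (SE, adjusted p = 0.949), and its 95% interval of -0.42 to 0.46 still holds a change as large as that of Bmpr1a in either direction.

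Grem1 encodes gremlin 1, a secreted protein that binds BMP2, BMP4 and BMP7 and keeps them from their receptors (chromosome 2, 113586321-113598803, minus strand). It was abundant, at 3988, 4800.0 and 3796 in Rnf40+/+ and at 3673, 3706 and 3648 in Rnf40-/-. The genotypes did not overlap, with the 3 Rnf40-/- libraries close together and below all of Rnf40+/+. The difference was small and did not pass the test (log2 fold change -0.18 ± 0.08 SE, 95% interval -0.36 to -0.0030, adjusted p = 0.0879). Rnf40+/+ replicates 2 and 3 set its size: without replicate 2 it was -0.08 (adjusted p = 0.302), and without replicate 3 it was -0.25 (adjusted p = 0.0148).

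All 4 ID genes fell, by unequal amounts. Id4 had the largest difference of the 4 (chromosome 13, 48356796-48359405, plus strand). It was at 412, 379 and 435 in Rnf40+/+ and at 220.2, 232 and 229 in Rnf40-/-. Every Rnf40-/- library was below every Rnf40+/+ library by a margin larger than the spread within either genotype. The mean fell from 409 ± 28.1 to 227 ± 6.06 (SD, n = 3 each), to 55.6% of Rnf40+/+, with a log2 fold change of -0.84 ± 0.10 (SE, 95% interval -1.06 to -0.62, adjusted p = 3.48e-05). A noncoding gene on the opposite strand, A330033J07Rik, overlaps its 5′ end in the mm9 annotation, and reads shared with it were not tested.

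Id3 had the highest read count of the 4 (chromosome 4, 135699412-135701670, plus strand), at 3968, 3877 and 4151 in Rnf40+/+ and at 3248, 3265 and 3345 in Rnf40-/-. The libraries of each genotype lay close together and the genotypes did not overlap. Id3 fell to 82.2% of Rnf40+/+ (log2 fold change -0.28 ± 0.06 SE, 95% interval -0.41 to -0.15, adjusted p = 0.00209). Leaving out any 1 library gave -0.30 to -0.26 for Id3 and -0.90 to -0.80 for Id4, and both passed each time.

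The calls of Id1 and Id2 were less firm. Id1, often used as a readout of BMP SMAD activity (chromosome 2, 152561987-152563146, plus strand), was at 1728, 1676 and 1336 in Rnf40+/+ and at 1289.9, 1283 and 1379 in Rnf40-/-. Rnf40+/+ replicate 3 lay within the Rnf40-/- range, and the other two Rnf40+/+ libraries lay above it. The log2 fold change was -0.25 ± 0.09 (SE, 95% interval -0.46 to -0.05, adjusted p = 0.0423). Id1 no longer passed without Rnf40+/+ replicate 1 (-0.18, adjusted p = 0.139) or replicate 2 (-0.21, adjusted p = 0.149), or without Rnf40-/- replicate 1 (adjusted p = 0.124), replicate 2 (adjusted p = 0.127) or replicate 3 (adjusted p = 0.0603). Without Rnf40+/+ replicate 3 it was -0.37 (adjusted p = 0.000687).

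Id2, the ID gene with roles in lymphoid, mammary and neural lineages (chromosome 12, 25778666-25780957, minus strand), was at 1072, 864 and 699.5 in Rnf40+/+ and at 556, 719 and 676 in Rnf40-/-. Rnf40-/- replicate 2 was above Rnf40+/+ replicate 3, and the other libraries were separated. The log2 fold change was -0.42 ± 0.14 (SE, 95% interval -0.73 to -0.11, adjusted p = 0.0277). It did not pass without Rnf40+/+ replicate 1 (-0.27, adjusted p = 0.0947), Rnf40+/+ replicate 2 (-0.42, adjusted p = 0.0797), Rnf40-/- replicate 1 (-0.31, adjusted p = 0.127) or Rnf40-/- replicate 3 (-0.45, adjusted p = 0.0549). The count of genes among the 10 that fell was accordingly 2 without any 1 of these 4 libraries and 3 without Rnf40-/- replicate 2. It was 6 without Rnf40+/+ replicate 3, when Bmp2 and Grem1 also passed. Over the whole table, fewer genes also passed with a library left out, at 6393 to 7713 against 7764 with all libraries. The part of this in the lost calls of Id1 and Id2 was not tested.

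**Figure D2:**
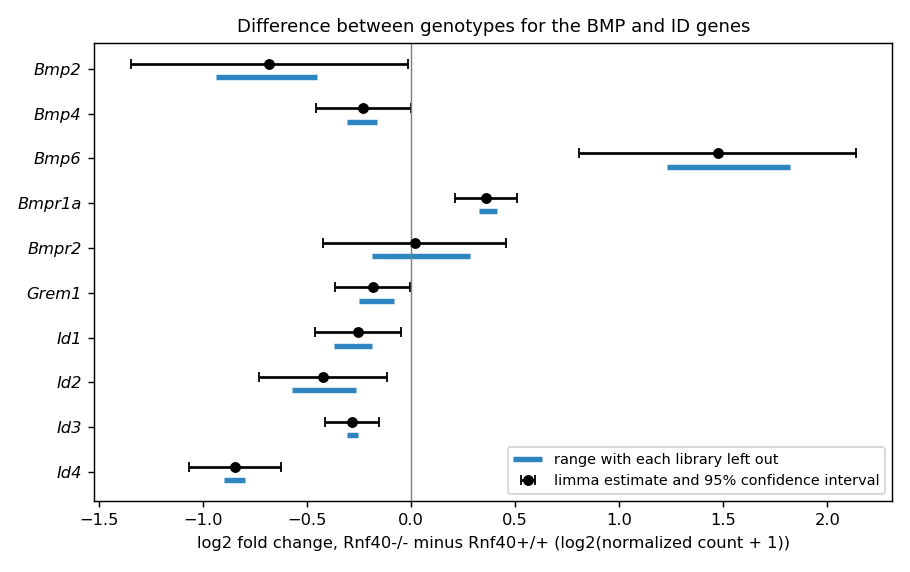
Log2 fold change (Rnf40-/- over Rnf40+/+) of the 10 genes, with the limma estimate and its 95% interval in black and the range with each library left out in blue. Bmp6 (1.47) and Bmpr1a (0.36) lie above 0, the 4 ID genes lie between -0.84 (Id4) and -0.25 (Id1), and the interval of Bmpr2 spans 0 widely.

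The per-kb scale allows a rough comparison of levels between genes, since its lengths are unions of all annotated exons and not of the transcripts expressed. On this scale, Id3 was the most abundant of the 10 in Rnf40+/+, with a level of 2233 ± 77.8 (SD, n = 3), followed by Id1 at 1362 ± 184, Grem1 at 1011 ± 128 and Id2 at 692 ± 147. Lower levels were found for Bmpr1a (456 ± 28.8), Id4 (246 ± 16.9), Bmp4 (202 ± 16.8) and Bmpr2 (71.8 ± 25.0). Bmp2 (12.1 ± 4.02) and Bmp6 (8.46 ± 3.97) were lowest. The ranges of neighbours in this order overlapped for Id1 with Grem1 and for Bmp2 with Bmp6, and not for the other neighbours.

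The order was similar in Rnf40-/-, with 3 neighbouring pairs exchanged. Bmpr1a (586 ± 25.3) moved above Id2 (512 ± 66.7), with overlapping ranges. Bmp4 (173 ± 17.1) moved above Id4 (137 ± 3.65), and Bmp6 (22.7 ± 4.06) moved above Bmp2 (7.24 ± 1.43), in both cases without overlap.

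The ID genes as a group and their E protein partners were both lower in Rnf40-/-. The sum of Id1 to Id4 per kb was 4798, 4519 and 4282 in Rnf40+/+ and 3496, 3634 and 3728 in Rnf40-/-, with no overlap (exact two-sided permutation test, p = 0.1, the smallest value possible). Id4 made up 5.17%, 5.06% and 6.12% of that sum in Rnf40+/+ and 3.80%, 3.84% and 3.71% in Rnf40-/-, again without overlap. The shares of the other ID genes overlapped between the genotypes, with Id3 at 49.4 ± 4.18% and 50.7 ± 1.01%, Id1 at 30.0 ± 2.71% and 31.4 ± 0.828%, and Id2 at 15.2 ± 2.37% and 14.1 ± 1.54%.

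E proteins are the broadly expressed helix-loop-helix factors that ID proteins sequester. Tcf3, which encodes E12 and E47, was at 2011, 2082 and 2215 in Rnf40+/+ and at 1195, 1153 and 1209.5 in Rnf40-/-, and it fell (log2 fold change -0.82 ± 0.07 SE, adjusted p = 1.49e-06). Tcf4, which encodes E2-2, fell as well (-0.51 ± 0.07 SE, adjusted p = 0.000145). Tcf12, which encodes HEB, had a mean of 2412 ± 177 in Rnf40+/+ and 2166 ± 139 in Rnf40-/- and did not pass (-0.15 ± 0.08 SE, adjusted p = 0.113), except without Rnf40+/+ replicate 3 (-0.21, adjusted p = 0.0280). The E protein sum per kb was 1183, 1173 and 1142 in Rnf40+/+ and 861, 856 and 816 in Rnf40-/-. The ratio of the ID sum to the E protein sum was 4.05, 3.85 and 3.75 in Rnf40+/+ and 4.06, 4.25 and 4.57 in Rnf40-/-. This ratio was thus slightly higher in Rnf40-/-, with no overlap and a gap between the genotypes that was smaller than the spread within either.

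**Figure D3:**
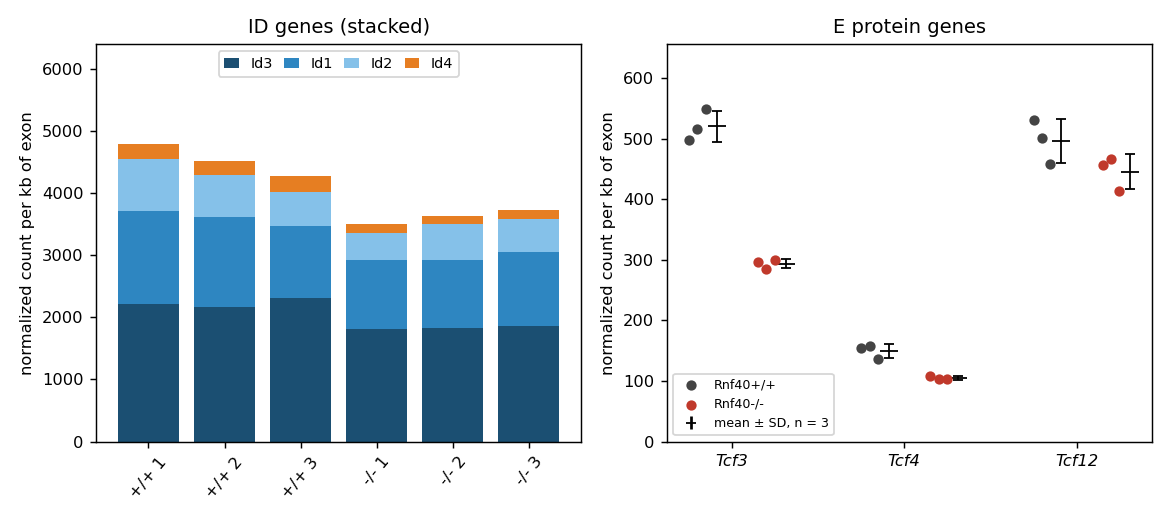
Normalized count per kb of exon for the ID genes, stacked by library (left), and for the E protein genes (right), where points are libraries and bars the mean ± SD. The stacked ID level was 4282 to 4798 in Rnf40+/+ and 3496 to 3728 in Rnf40-/-, and Tcf3 separates widely by genotype.

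Beyond the 10 genes, 65 other genes of the pathway were listed by role, and all were in the table. Of these, 53 passed the filter on low reads, 13 rose, 15 fell and 25 did not pass, with a median log2 fold change of -0.0047. Their share past the test, like that of the 10, can be read against the 47.4% of all genes tested. The counts by role below can be read against the 23.3% of all genes tested that rose and the 24.1% that fell. These lists are small and were chosen with earlier results known. The study's limits, applied to the limma fit, were met by 2 that were higher and 4 that were lower.

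Of the 11 other ligands, 7 could be tested, of which 4 rose and 0 fell, all from low levels. Bmp8a was at 9.55, 18.4 and 23.2 in Rnf40+/+ and at 53.0, 34.4 and 34.0 in Rnf40-/- (log2 fold change 1.25 ± 0.36 SE, adjusted p = 0.0129), and did not pass without Rnf40-/- replicate 1 (1.05, adjusted p = 0.0720). Bmp3, an atypical ligand that counteracts other BMPs, had 5 to 9 reads per Rnf40+/+ library and 22 to 24 per Rnf40-/- library (means 6.95 ± 3.45 and 22.8 ± 2.16, adjusted p = 0.00646). Gdf5, a joint and cartilage ligand, had 1 to 9 and 13 to 22 reads (means 5.52 ± 4.90 and 18.4 ± 4.87, adjusted p = 0.0241). The Gdf5 call was lost without Rnf40+/+ replicate 2 (adjusted p = 0.0757), Rnf40-/- replicate 2 (adjusted p = 0.0986) or Rnf40-/- replicate 3 (adjusted p = 0.0764). For both Bmp3 and Gdf5 the fitted fold change depended on the pseudocount, ranging from 1.81 to 0.97 and from 2.21 to 0.90 on the log2 scale for pseudocounts of 0.1 and 10. Gdf6, with the highest normalized count of the 7, had means of 90.4 ± 20.5 and 127 ± 16.6 and did not pass (log2 fold change 0.50 ± 0.20 SE, adjusted p = 0.0513), except without Rnf40+/+ replicate 2 (0.66, adjusted p = 0.0272) or Rnf40-/- replicate 3 (0.61, adjusted p = 0.0484). Gdf7 was at 17.9, 24.5 and 11.2 in Rnf40+/+ and at 9.18, 9.39 and 3.78 in Rnf40-/-, without overlap, and did not pass (-1.18, 95% interval -2.21 to -0.15, adjusted p = 0.0586), except without Rnf40+/+ replicate 3 (-1.46, adjusted p = 0.0339).

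Bmp3 was also one of the pair of tested genes whose 6-library pattern was most like that of Bmp6, measured as the root mean square difference of the centered log2 values (0.15). The other was AK044380 (0.12). They were chosen for this likeness.

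Among 10 other receptors and co-receptors, 8 were tested, of which 1 rose and 3 fell. Acvrl1, the type I receptor ALK1 best known from endothelium, rose from 384 ± 89.7 to 590.5 ± 14.7 (log2 fold change 0.65 ± 0.13 SE, adjusted p = 0.00194). Beside it, the endothelial markers Pecam1, Cdh5 and Kdr rose from means of 3.75, 2.76 and 27.4 to 27.6, 31.6 and 84.5, while Emcn fell from 126 to 55.3. In all, 5 of the 7 endothelial markers could be tested, of which 3 rose and 1 fell, their summed level was 147 to 282 in Rnf40+/+ and 234 to 333 in Rnf40-/-, and Cldn5 was at 0 in 5 of the 6 libraries. The part of endothelial cells in the Acvrl1 and Bmp6 values was not tested. Rgma, a BMP co-receptor of the repulsive guidance family, fell from 479 ± 65.3 to 203 ± 15.1 (log2 fold change -1.23 ± 0.12 SE, adjusted p = 6.34e-06). Bambi, a kinase-less pseudoreceptor, fell from 266 ± 21.3 to 150.1 ± 9.08 (-0.82 ± 0.12 SE, adjusted p = 0.000181). Bmpr1b, the type I receptor ALK6, fell from 376 ± 54.6 to 284 ± 10.4 (-0.39 ± 0.12 SE, adjusted p = 0.0147), but not past the test without Rnf40+/+ replicate 2 (adjusted p = 0.0631) or Rnf40-/- replicate 2 (adjusted p = 0.0563). Acvr1, which encodes ALK2, was at 1146 ± 31.5 and 1079 ± 11.8 (-0.09, adjusted p = 0.311).

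Antagonists and modulators moved in both directions. Of 19 listed, 15 were tested, of which 3 rose and 6 fell. Nog encodes noggin, a secreted BMP antagonist, and it rose. It was at 46.6, 62.2 and 63.9 in Rnf40+/+ and at 105, 129 and 125 in Rnf40-/- (log2 fold change 1.05 ± 0.19 SE, adjusted p = 0.000743). Twsg1, a chordin cofactor, rose slightly (0.21, adjusted p = 0.0149), though not past the test without Rnf40-/- replicate 1 (adjusted p = 0.0555) or replicate 2 (adjusted p = 0.0647), and Crim1, a membrane protein that binds BMPs, rose by 0.34 (adjusted p = 0.00289). Tll1, a tolloid protease that cleaves chordin, fell from 2580.1 ± 231 to 1267 ± 19.6 (-1.02 ± 0.07 SE, adjusted p = 6.49e-07). Nbl1, an antagonist of the DAN family, fell from 3255 ± 290.1 to 1781 ± 207 (-0.87 ± 0.09 SE, adjusted p = 1.15e-05). Fstl1, a secreted follistatin-like protein, fell from 35573 ± 2049 to 24577 ± 871 (-0.53 ± 0.07 SE, adjusted p = 0.000113) and had the highest normalized count of the genes named here. Among the genes that hold ligand back, Nbl1 thus fell while Nog rose. Fstl3 (-0.40, adjusted p = 0.00476) and Dand5 (-0.92, adjusted p = 0.0448) of this list also fell, Dand5 on 11 to 17 reads per Rnf40-/- library. Fst, Chrd and Bmper did not pass.

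Among the SMAD and SMURF signal transducers, all 8 were tested, of which 4 rose and 0 fell. Smad4, the common partner SMAD, rose from 1361 ± 76.5 to 2172 ± 99.8 (log2 fold change 0.67 ± 0.07 SE, adjusted p = 1e-05). Smad9, a BMP-activated SMAD, rose from 77.5 ± 18.8 to 142 ± 20.0 (0.89 ± 0.20 SE, adjusted p = 0.00351). Smad6, an inhibitory SMAD that is itself a known BMP target, rose from 448 ± 54.2 to 682 ± 55.7 (0.61 ± 0.11 SE, adjusted p = 0.00056), the opposite direction to the ID genes. Smurf2, a ubiquitin ligase for SMADs and their receptors, rose from 1746 ± 229.7 to 2667 ± 117 (0.62 ± 0.09 SE, adjusted p = 0.000138). Smad1 (0.14, adjusted p = 0.146) and Smad7 (0.15, adjusted p = 0.125) did not pass.

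Of 14 other genes known to respond to BMP, 12 were tested, of which 1 rose and 4 fell, with a median log2 fold change of -0.12. Hes1, a transcriptional repressor also under Notch control, fell from 1359.7 ± 43.6 to 741 ± 54.3 (-0.88 ± 0.08 SE, adjusted p = 2.74e-06). Dlx5, an osteoblast homeobox gene, was at 56.1, 42.8 and 34.3 in Rnf40+/+ and at 27.5, 14.6 and 15.1 in Rnf40-/- (-1.21 ± 0.33 SE, adjusted p = 0.00916). Sp7, which encodes osterix, had 11 to 20 reads per Rnf40+/+ library and 0 to 4 per Rnf40-/- library (adjusted p = 0.00608), so its fold change was set by the pseudocount and is not given. Runx2, the osteoblast master regulator, fell slightly (-0.29, adjusted p = 0.0114). Atoh8 rose from 214 ± 13.6 to 283 ± 45.0 (0.39, adjusted p = 0.0291), but did not pass without Rnf40+/+ replicate 3 (adjusted p = 0.0593), Rnf40-/- replicate 2 (adjusted p = 0.0653) or Rnf40-/- replicate 3 (adjusted p = 0.139).

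**Figure D4:**
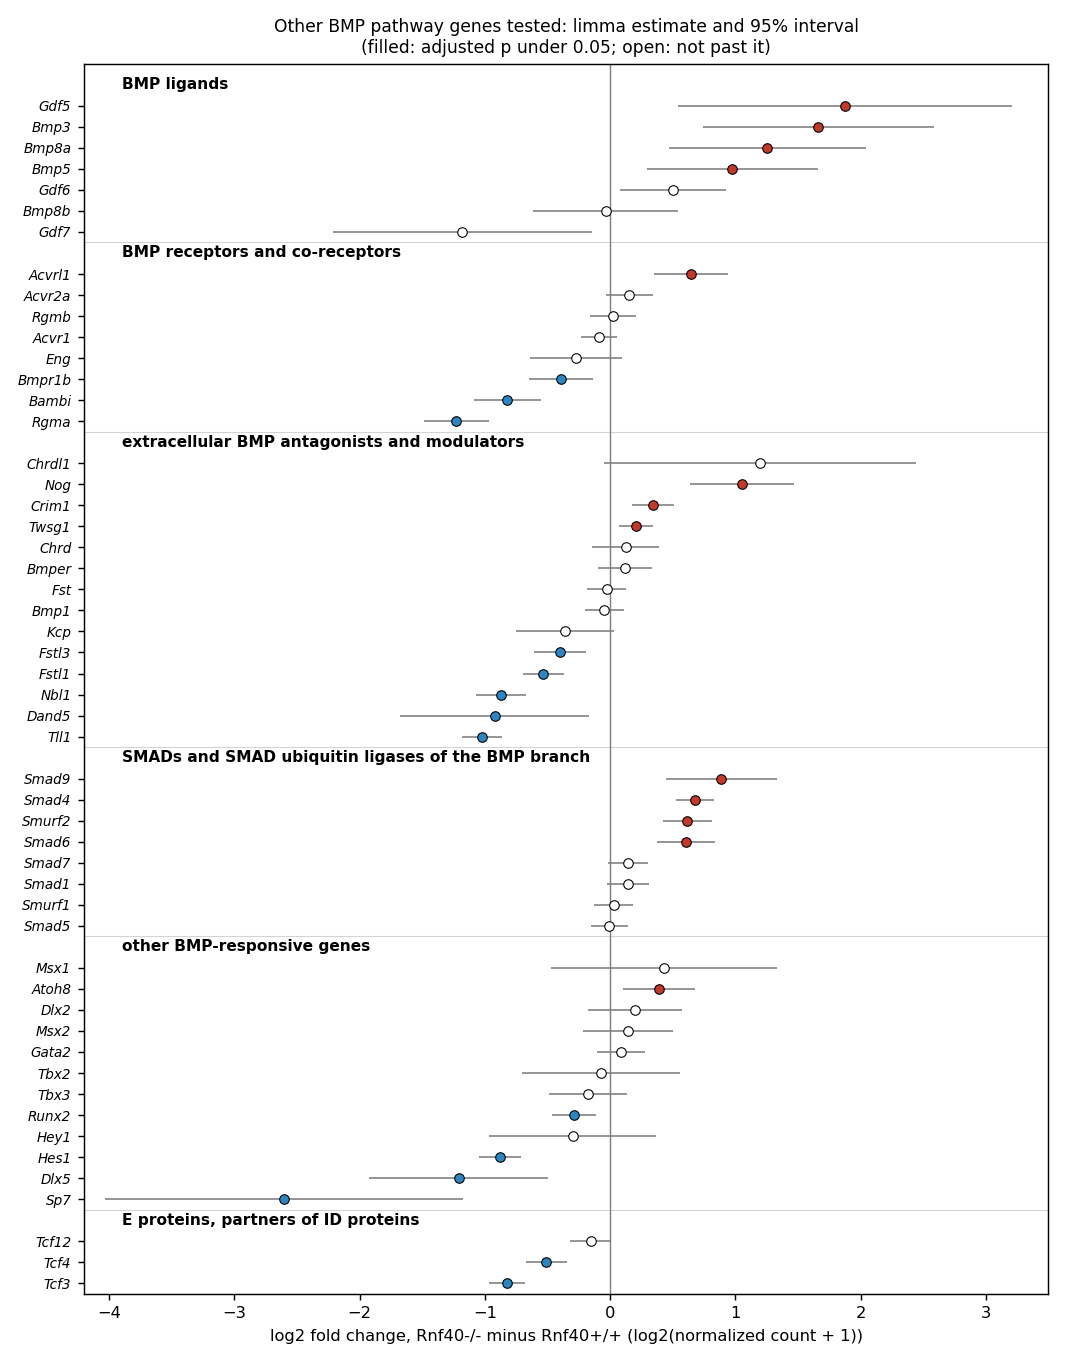
Log2 fold change (Rnf40-/- over Rnf40+/+) with its 95% interval for the pathway genes shown, 1 gene per row grouped by role, filled where the adjusted p was under 0.05. No ligand and no SMAD or SMURF gene is filled on the left of 0, whereas antagonists and receptors lie on both sides, with Tll1 (-1.02) and Rgma (-1.23) on the left and Nog (1.05) on the right. Of all genes tested, 23.3% rose and 24.1% fell.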

How the data were processed

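RNA from 3 Rnf40+/+ and 3 Rnf40-/- libraries of MEFs was sequenced with a strand-specific kit. The authors mapped reads to the mm9 transcriptome and deposited, as a signal per gene, read counts divided by a DESeq size factor per library; the submitters' processing notes name Bowtie2 2.1.0 and DESeq 1.14.0. The counting tool and its strand setting are not given in the sources used here. All deposited values were whole multiples of 1 read (100% within 0.01 reads), so reads were recovered and used for the gene filter (edgeR's filterByExpr), which kept 16378 of 29955 genes.

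Log2(normalized count + 1) was fitted with limma 3.58.1 (trended variance, genotype as the only term) and adjusted by Benjamini-Hochberg over all genes tested. Alternatives used edgeR 4.0.16 and DESeq2 1.42.0 on the recovered reads, other scalings, filters and pseudocounts, a replicate block, and each library left out. Sums and ratios were tested by exact permutation with scipy 1.17.1. The fits were tested on simulated data. Levels per kb used the union of exons in the mm9 gene annotation (GENCODE vM1). The union took in 15 transcripts and 12250 bases for Tcf4, and 1 transcript and 3507 bases for Bmpr2. Orders, shares and ratios of different genes depend on these lengths.

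The members and the pathway and marker lists were chosen with earlier results of these data known. Named pathway genes had a log2 fold change beyond 1 in either direction, a mean over 15 and a passing adjusted p (0.05), or the largest fold change or highest mean of a list; genes with the pattern most like a member past these limits were added. Acvrl1, Bmpr1b, Bambi, Nbl1, Twsg1, Crim1, Fstl3, Dand5, Fst, Chrd, Bmper, Smad1, Smad4, Smad6, Smad7, Runx2, Atoh8, Tcf4, Txndc5, Pecam1, Cdh5, Kdr, Emcn, Tek, Krt5, Krt8, Pax6, Lyz2, Ptprc, Cd14, C1qa and Gdf7 were named after their values were seen. The markers Fn1, Dcn, Lum and Cldn5 were likewise named after their values were seen. Of the other marker lists, 1 of 4 epithelial genes was higher, and 0 erythroid or neural genes could be tested. An item of the antagonist list is counted in its list but is not reported here.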

Additional observations from a re-analysis of the deposited data

How the results depend on the processing

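The fold, level and unadjusted p limits of the study were also applied to the limma fit. Under them, 1 of the 10 genes was higher and 0 were lower (2 and 4 by adjusted p). Of the other pathway genes, 2 were higher and 4 lower (13 and 15 by adjusted p). When each library was left out in turn, 2 to 6 of the 10 genes were lower and the 2 higher genes were the only ones, while 9 to 14 pathway genes were higher and 13 to 18 lower. The sign of Bmpr2, near 0 throughout, turned with edgeR (-0.018), with DESeq2 (-0.018) and with single libraries left out (-0.19 to 0.28). Id1 did not pass with upper-quartile scaling (-0.21, adjusted p = 0.0975) or without the gene filter (-0.25, adjusted p = 0.0532), and Gdf6 passed with upper-quartile scaling (0.55, adjusted p = 0.0332). Upper-quartile scaling shifted the median of all genes to 0.044. The cause of these changes was not tested.

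The replicate numbers did not pair the libraries. Deviations from the genotype means correlated by 0.012, 0.017 and 0.021 between same-numbered libraries (16378 genes). The highest correlation of each library was with a library of another number, at 0.033 to 0.037. With the replicate number as a block, 8217 genes passed in place of 7764, Grem1 (-0.18, adjusted p = 0.0443), Gdf6 (adjusted p = 0.0356) and Gdf7 (adjusted p = 0.0477) also passed, and the call of no other of the 10 genes changed. The low read counts of Bmp2, Bmp6, Bmp3, Gdf5 and Sp7 limit the precision of their fold changes.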
